A study of Mus musculus with 18 samples.

Results

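The IL-1 family genes described here are 10 genes chosen by symbol. They are the cytokine genes *Il1a*, *Il1b* and *Il18*, the receptor antagonist *Il1rn*, the IL-18-binding protein *Il18bp*, and the receptors *Il1r1*, *Il1r2*, *Il1rap*, *Il1rl1* and *Il1rl2*. All 10 were found among the 62197 genes of the deposited table, of which 25177 carry a symbol, and all 10 had enough counts to be tested. IL-1α and IL-1β bind the receptor IL-1R1, which recruits the accessory protein encoded by *Il1rap* and signals through MyD88 to NF-κB and MAP kinases. IL-1β and IL-18 are made as inactive precursors that caspase-1 cleaves in inflammasomes, whereas the IL-1α precursor is active without this step. The family carries its own brakes, namely an antagonist that occupies IL-1R1 without signalling, the decoy receptor IL-1R2 and a soluble protein that captures IL-18, and myeloid cells including DCs are known to make many of these proteins.

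Bulk RNA-seq was done on DCs grown from the bone marrow of wild-type mice (cPLA_2_ WT) and from mice in which floxed *Pla2g4a*, the gene for the phospholipase cPLA_2_, is deleted by an *Itgax-cre* transgene (cPLA_2_ KO). The Methods give ages of 6 to 8 weeks for the bone marrow donors and 8 to 14 weeks for mice in experiments, of either sex, with littermate or age-matched controls, and the labels do not give the sex of the donor of each library. After 10 days with a supernatant containing GM-CSF, semiadherent cells were collected at the end of culture (nonconfined), 4 h after they were confined, with the height set at 3 µm (confined), or on the day after 30 min with LPS at 100 ng ml-1 and a wash (LPS). Each treatment and genotype has 3 libraries, which makes 18. The deletion is driven in cells that express *Itgax*. The culture also yields granulocytes and macrophages, which the Methods describe as separated from DCs by their adhesion, with more than 90% of the recovered cells positive for CD11c. The Methods give a shorter exposure to LPS than the labels do. The nonconfined cells were collected at the end of culture, so that confinement cannot be told apart from the time and handling that came with it. Libraries were made with a pair of kits, and the labels do not say which library came from which. The study calls each sample a biological replicate and does not say whether that means separate cultures or separate mice, so the p-values measure the spread between libraries. Between 33027230 and 61300021 reads fell on genes in each library.

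Some labels were checked against marker genes before the comparisons were made. All 10 DC markers had enough counts to be tested, although *Cd209a* was at 9.15 to 15.9 normalized counts in LPS libraries labelled cPLA_2_ WT and 6.17 to 11.4 in those labelled cPLA_2_ KO, and *Cd74*, which encodes the invariant chain of MHC class II, was the most abundant of them. The genotype labels of the LPS libraries went against the marker genes. The Y-linked gene *Ddx3y* was at 0 to 3.05 normalized counts in nonconfined and 0 to 2.37 in confined cPLA_2_ WT libraries, and at 874 to 981 and 920.2 to 1036 in those from cPLA_2_ KO mice. In the LPS libraries it was at 1271, 0 and 662 in replicates 1, 2 and 3 labelled cPLA_2_ WT and at 2.12, 1476 and 783 in those labelled cPLA_2_ KO. *Pla2g4a* was at 967 to 1005 normalized counts in the LPS libraries labelled cPLA_2_ WT and 1028 to 1065 in those labelled cPLA_2_ KO. It was thus not lower with the knockout label, whereas it was at 686 to 770.4 in cPLA_2_ WT and 533 to 548 in cPLA_2_ KO libraries of nonconfined cells and at 1321 to 1430.3 and 871 to 923 in those of confined cells, a decrease that left most of the signal. *Acot1*, chosen after its values were seen, as was *Ddx3y*, was at 0 to 3.81 and 4.74 to 6.76 in nonconfined and confined cPLA_2_ WT libraries and at 377 to 478 and 588 to 626 in those of cPLA_2_ KO cells. In LPS libraries it was at 54.9, 0.915 and 33.6 and 0, 49.2 and 40.7 under the labels cPLA_2_ WT and cPLA_2_ KO, below all nonconfined and confined cPLA_2_ KO libraries. Replicate 1 of one label and replicate 2 of the other were thus high in *Ddx3y*, and replicate 3 of both labels lay in between. The LPS libraries are therefore called by their labels, and they were also pooled over genotype. In nonconfined and confined cells the genotype cannot be told apart from the sex or the donor.

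Values are normalized counts, meaning reads per gene divided by the size factor of the library, and gene length was not scaled for unless per kb of exon is written. The exon length is that of the canonical transcript in GENCODE, while the deposited counts rest on FAST DB, where some genes span less. *Il1a* spans 129140291 to 129152098 in GENCODE and 129141530 to 129151893 in the deposited table. A shorter *Il1a* would raise its values per kb and its ratio to *Il1b* in all groups alike. Fold changes are on the log2 scale after adding 1, with the standard error (SE) of the fit, and a gene was called higher or lower at an adjusted p under 0.05 (limma, Benjamini-Hochberg over the 17875 genes tested). An interaction is the change with confinement in cPLA_2_ KO cells minus that in cPLA_2_ WT cells. The 2 groups of a comparison are said to overlap where their ranges over the libraries do.

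*Il1b*, which encodes the IL-1β precursor, was low in nonconfined cells and rose with confinement in both genotypes, by far more in cPLA_2_ WT cells. Nonconfined cPLA_2_ WT libraries held 272, 321 and 287 normalized counts of *Il1b* in replicates 1, 2 and 3. Nonconfined cPLA_2_ KO libraries held 315, 259.7 and 337. These 2 groups overlapped, with a log2 difference of 0.04 (95% interval -0.11 to 0.19, adjusted p = 0.789). In confined cPLA_2_ WT libraries the gene stood at 105806, 99731 and 102497, and in confined cPLA_2_ KO libraries at 4571, 4393 and 4739. Each confined library was above each nonconfined library, and each confined cPLA_2_ WT library above each confined cPLA_2_ KO library. The increase was 349-fold in cPLA_2_ WT cells (log2 fold change 8.45, SE 0.07, adjusted p = 2.08e-26) and 15.1-fold in cPLA_2_ KO cells (log2 fold change 3.91, SE 0.07, adjusted p = 6.94e-20). The interaction was -4.54 (SE 0.10, adjusted p = 1.58e-18). Confined cPLA_2_ KO cells thus held 22.5-fold less *Il1b* mRNA than confined cPLA_2_ WT cells (log2 fold change -4.49, SE 0.07, adjusted p = 1.67e-21), while the gene was still raised over nonconfined cells. In bulk libraries, fewer cells that express a gene cannot be told apart from less RNA in each cell.

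*Il1a*, which encodes IL-1α, followed *Il1b* closely. It was at 390.1, 367 and 327 normalized counts in nonconfined cPLA_2_ WT libraries and at 412, 374 and 345 in nonconfined cPLA_2_ KO libraries. After confinement it reached 78344, 72912 and 74953 in cPLA_2_ WT libraries and 4585, 4168 and 4708 in cPLA_2_ KO libraries. The nonconfined groups overlapped and the confined groups did not. The change with confinement was 209-fold in cPLA_2_ WT cells (log2 fold change 7.70, SE 0.08, adjusted p = 4.17e-25) and 11.9-fold in cPLA_2_ KO cells (log2 fold change 3.57, SE 0.08, adjusted p = 9.45e-19), with an interaction of -4.13 (SE 0.11, adjusted p = 1.67e-17).

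**Figure D1:**
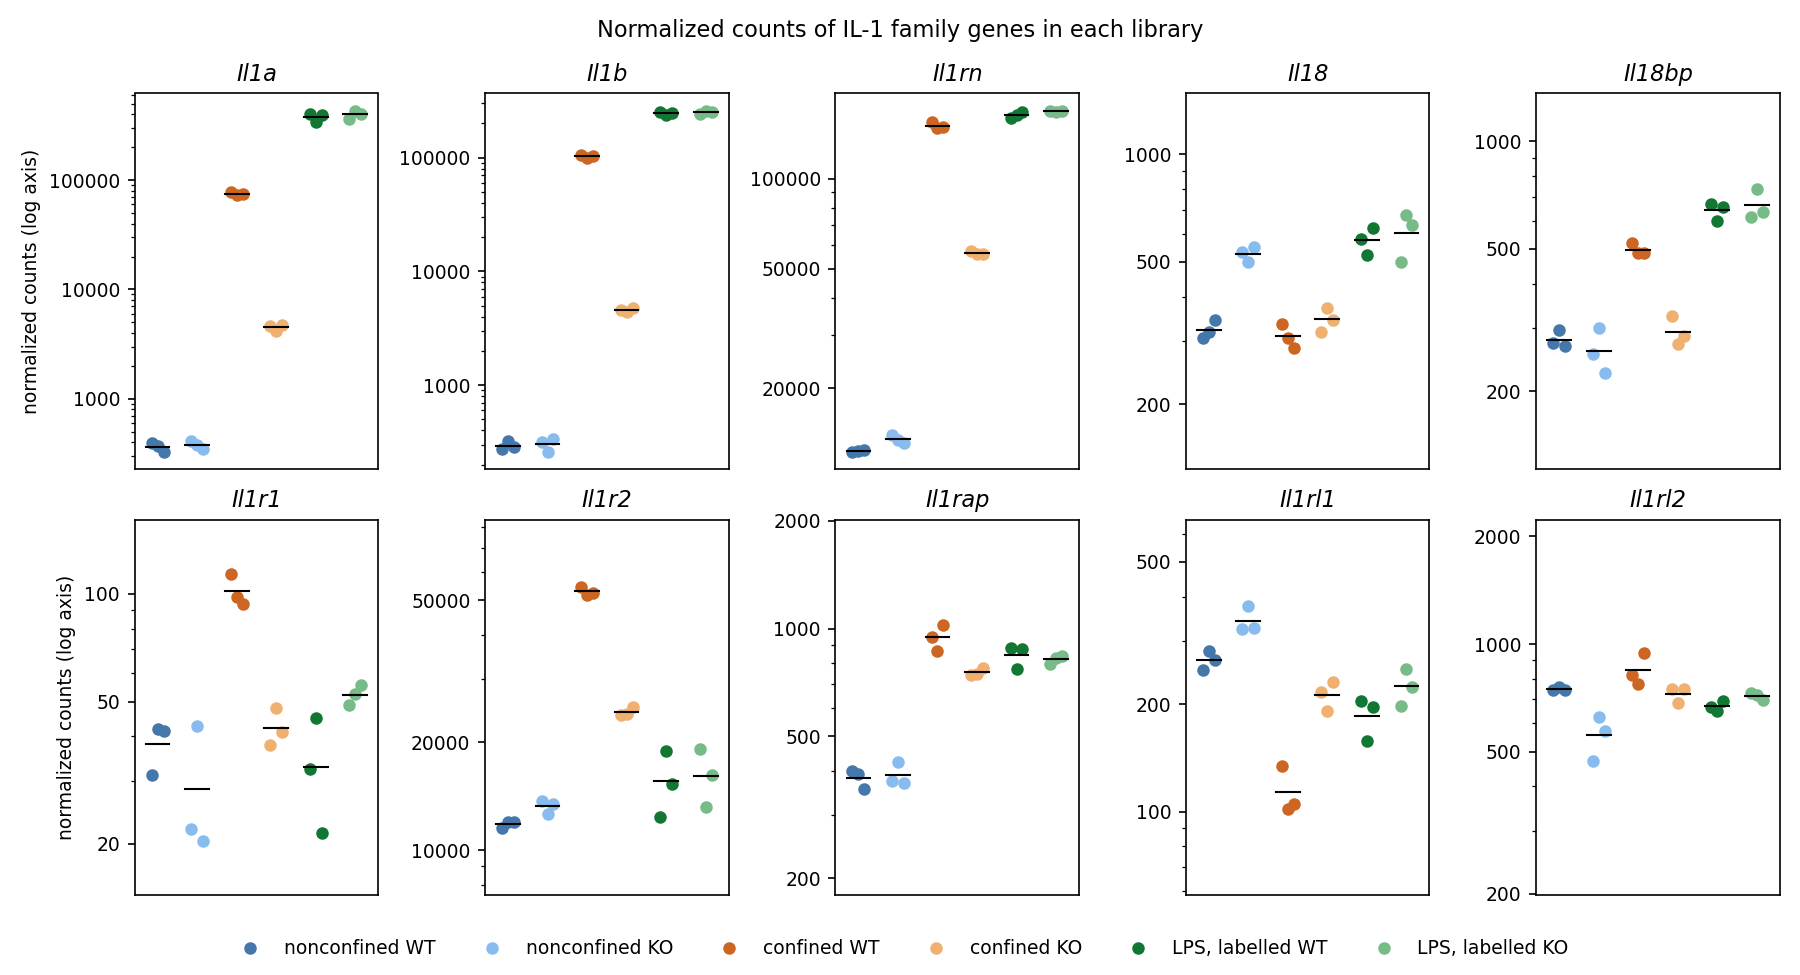
Normalized counts of the 10 IL-1 family genes in each of the 18 libraries. Each point is 1 library (n = 3 per group), placed from left to right by replicate number within its group, and the black line is the mean of the group. The axes are logarithmic and each panel has its own range, so heights cannot be compared between panels. Colours give the groups, and the LPS groups are named by their genotype labels, which go against the marker genes. *Il1a*, *Il1b* and *Il1rn* were higher in confined than in nonconfined libraries of both genotypes and higher in confined cPLA_2_ WT than in confined cPLA_2_ KO libraries.

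LPS brought both IL-1 genes higher still. *Il1b* was at 252268, 235313 and 248887 normalized counts in the LPS libraries labelled cPLA_2_ WT and at 239742, 259130.0 and 250041 in those labelled cPLA_2_ KO. *Il1a* was at 403620.0, 343042 and 391600.0 and at 361686, 433263 and 404169. The 6 LPS libraries lay above each of the other 12 for both genes, and the 2 labels overlapped. Over both labels, LPS raised *Il1a* 1052-fold (log2 fold change 10.04, SE 0.06, adjusted p = 2.86e-30) and *Il1b* 829-fold (log2 fold change 9.70, SE 0.05, adjusted p = 1.73e-30). Confined cPLA_2_ WT cells had 5.15-fold less *Il1a* (log2 fold change -2.37, SE 0.07, adjusted p = 3.44e-17) and 2.41-fold less *Il1b* (log2 fold change -1.27, SE 0.06, adjusted p = 2.6e-13) than LPS-treated cells. The shortfall was larger in confined cPLA_2_ KO cells, at 86.7-fold for *Il1a* (log2 fold change -6.44, SE 0.07, adjusted p = 1.81e-25) and 54.2-fold for *Il1b* (log2 fold change -5.76, SE 0.06, adjusted p = 2.72e-25). Confined and LPS-treated cells were collected at different times after the start of the treatment.

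The balance between the 2 cytokine mRNAs also differed between treatments. Per kb of exon, *Il1a* stood to *Il1b* at a ratio of 0.452 to 0.569 in nonconfined cPLA_2_ WT libraries and 0.406 to 0.571 in nonconfined cPLA_2_ KO libraries. The ratio was 0.290 to 0.294 in confined cPLA_2_ WT libraries and 0.376 to 0.398 in confined cPLA_2_ KO libraries, and 0.578 to 0.635 and 0.598 to 0.663 in LPS libraries labelled cPLA_2_ WT and cPLA_2_ KO. It was thus lowest in confined cPLA_2_ WT libraries and highest in LPS libraries, which did not overlap with the nonconfined libraries of the same label. These ratios are descriptions and were not tested.

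*Il18* encodes the third cytokine, whose precursor is known to be stored in many resting cells, and it followed another pattern. It was at 306, 318 and 344 normalized counts in nonconfined cPLA_2_ WT libraries and 533, 499 and 551 in nonconfined cPLA_2_ KO libraries, which did not overlap (log2 fold change 0.71, SE 0.11, adjusted p = 0.000256). Confined cPLA_2_ WT libraries held 336, 306 and 288 and confined cPLA_2_ KO libraries 319, 372 and 344. The gene fell with confinement in cPLA_2_ KO cells (log2 fold change -0.61, SE 0.11, adjusted p = 7.45e-05), from a higher start to the level of cPLA_2_ WT cells, which gave -0.06 (95% interval -0.28 to 0.16, adjusted p = 0.668). The interaction was -0.55 (SE 0.15, adjusted p = 0.00917). These values depended on the scaling, since the same total per library gave -0.28 (adjusted p = 0.0223) for confinement in cPLA_2_ WT cells, -0.36 (adjusted p = 0.0558) for the interaction and 0.31 (adjusted p = 0.0176) for cPLA_2_ KO against cPLA_2_ WT in confined cells. In LPS libraries *Il18* was at 579.9, 522 and 621 under the label cPLA_2_ WT and at 499, 679 and 635 under the label cPLA_2_ KO. LPS raised it over both labels (log2 fold change 0.51, SE 0.08, adjusted p = 3.74e-06), although the LPS libraries overlapped with nonconfined cPLA_2_ KO libraries. The LPS effect was 0.01 (adjusted p = 0.909) with the same total per library and 0.18 (adjusted p = 0.141) with the libraries labelled cPLA_2_ KO alone. Over all alternatives it ran from 0.01 to 0.83. Mean counts in LPS and nonconfined libraries were 574 and 323 under the label cPLA_2_ WT and 604 and 528 under the label cPLA_2_ KO. *Bco2*, chosen after its values were seen, overlaps *Il18* on the other strand and was at 181 to 193, 266 to 305, 417 to 539 and 136 to 139.7 normalized counts in nonconfined cPLA_2_ WT, nonconfined cPLA_2_ KO, confined cPLA_2_ WT and confined cPLA_2_ KO libraries.

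The libraries were made with stranded kits, but the count step is not stated to have used the strand of the reads, so a gene and a neighbour that overlaps it on the other strand cannot be told apart in full. The neighbours named here were chosen after their values were seen. For *Il1b*, the antisense gene *Il1bos* was small beside it, at 156 to 165 normalized counts in confined cPLA_2_ WT and 424 to 676 in LPS libraries labelled cPLA_2_ WT. *Numa1*, which overlaps *Il18bp* on the other strand, was at 6541 to 7119 in nonconfined and 5181 to 5425 in confined cPLA_2_ WT libraries. In the annotation *Gm14023* overlaps *Il1a* and *Il1b*, and *Gm16894* overlaps *Il1r2*, on the other strand. So do *Tex12* with *Il18*, *Gm20319* with *Il1rap* and *Gm69581* with *Il1rl2*.

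*Il1rn* encodes the antagonist that keeps IL-1 from its receptor, and it was already abundant before any treatment. Nonconfined libraries held 12274, 12349 and 12439.8 normalized counts in cPLA_2_ WT and 13982, 13397 and 13118 in cPLA_2_ KO cells. Confined libraries held 154259, 147351 and 148372 and 57399, 55879 and 56065, and LPS libraries 159003, 163279 and 166137 under the label cPLA_2_ WT and 168623, 167019 and 168411 under the label cPLA_2_ KO. No group overlapped with the next in the order nonconfined cPLA_2_ WT, nonconfined cPLA_2_ KO, confined cPLA_2_ KO, confined cPLA_2_ WT, LPS labelled cPLA_2_ WT and LPS labelled cPLA_2_ KO. Confinement raised *Il1rn* 12.1-fold in cPLA_2_ WT cells (log2 fold change 3.60, SE 0.04, adjusted p = 4.25e-25) and 4.18-fold in cPLA_2_ KO cells (log2 fold change 2.06, SE 0.04, adjusted p = 4.79e-20), and the interaction was -1.54 (SE 0.05, adjusted p = 1.09e-15). LPS raised it 12.8-fold (log2 fold change 3.68, SE 0.03, adjusted p = 1.5e-28). Confined cPLA_2_ WT cells stood close to LPS-treated cells for this gene, with a log2 difference of -0.14 (SE 0.03, adjusted p = 0.000777) that turned to 0.15 (adjusted p = 0.000222) once each library was scaled to the same total. In confined cPLA_2_ KO cells the difference from LPS was -1.55 (SE 0.03, adjusted p = 1.83e-20).

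The call of a small excess of *Il1rn* in nonconfined cPLA_2_ KO cells (log2 fold change 0.13, SE 0.04, adjusted p = 0.0342) depended on single libraries and on the fit. It was lost with no filter (0.13, adjusted p = 0.0695), with the same total per library (0.09, adjusted p = 0.09) and with only the groups compared (0.13, adjusted p = 0.0722). The excess was 0.12 (adjusted p = 0.1), 0.13 (adjusted p = 0.103) and 0.13 (adjusted p = 0.0916) without replicates 1, 2 and 3 of nonconfined cPLA_2_ WT cells in turn, and 0.10 (adjusted p = 0.164) without replicate 1 of nonconfined cPLA_2_ KO cells.

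Because *Il1rn* rose less than the IL-1 genes, the ratio of antagonist to cytokine mRNA fell in each treatment. Per kb of exon, *Il1rn* stood to *Il1b* at 24.7, 21.1 and 23.8 in replicates 1, 2 and 3 of nonconfined cPLA_2_ WT cells and at 24.3, 28.3 and 21.4 in those of nonconfined cPLA_2_ KO cells. The ratio was 0.799, 0.810 and 0.793 in confined cPLA_2_ WT libraries and 6.88, 6.97 and 6.48 in confined cPLA_2_ KO libraries. In LPS libraries it was 0.345 to 0.380 under the label cPLA_2_ WT and 0.353 to 0.386 under the label cPLA_2_ KO. Confined cPLA_2_ KO cells thus held several times more antagonist than *Il1b* mRNA, whereas in confined cPLA_2_ WT and in LPS-treated cells *Il1b* mRNA was in excess. Against the sum of *Il1a* and *Il1b* the means ± SD were 15.5 ± 0.952 in nonconfined cPLA_2_ WT and 16.4 ± 1.44 in nonconfined cPLA_2_ KO libraries, 0.620 ± 0.00672 and 4.88 ± 0.210 in confined libraries of these genotypes, and 0.226 ± 0.0148 and 0.226 ± 0.0144 in LPS libraries labelled cPLA_2_ WT and cPLA_2_ KO (n = 3 libraries each).

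**Figure D2:**
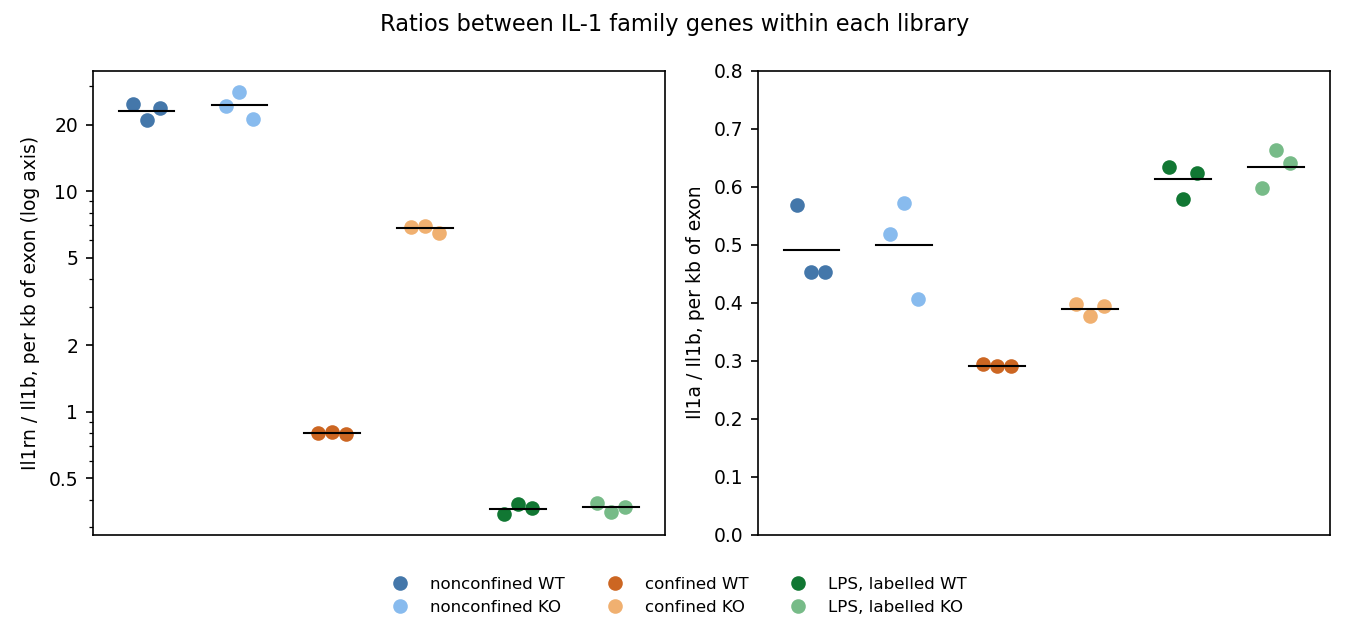
Ratios of *Il1rn* to *Il1b* (left, logarithmic axis) and of *Il1a* to *Il1b* (right, axis from 0) within each library, from normalized counts per kb of exon. Each point is 1 library (n = 3 per group) and the black line is the mean of the group. LPS groups are named by their genotype labels. The ratio of *Il1rn* to *Il1b* was above 20 in nonconfined libraries, above 5 in confined cPLA_2_ KO libraries and below 1 in confined cPLA_2_ WT and LPS libraries.

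*Il1r2*, the decoy receptor, was far more abundant than the signalling receptor *Il1r1* in each group. It was at 11538, 11972 and 11965 normalized counts in nonconfined cPLA_2_ WT and 13752, 12623 and 13470.5 in nonconfined cPLA_2_ KO libraries, and at 54554, 51699 and 52511 in confined cPLA_2_ WT and 23819.6, 23944 and 25139 in confined cPLA_2_ KO libraries. Confined libraries did not overlap with nonconfined ones, nor confined cPLA_2_ WT with confined cPLA_2_ KO libraries. The gene rose 4.47-fold with confinement in cPLA_2_ WT cells (log2 fold change 2.16, SE 0.11, adjusted p = 4.52e-13) and 1.83-fold in cPLA_2_ KO cells (log2 fold change 0.87, SE 0.11, adjusted p = 1.58e-06), with an interaction of -1.29 (SE 0.16, adjusted p = 1.72e-06). Unlike the cytokines and *Il1rn*, it was higher in confined than in LPS-treated cells, with log2 differences of 1.76 for cPLA_2_ WT (SE 0.10, adjusted p = 1.77e-12) and 0.64 for cPLA_2_ KO cells (SE 0.10, adjusted p = 7.06e-06). Per kb of exon, *Il1r2* stood at 8333 and *Il1r1* at 6.47 normalized counts in nonconfined cPLA_2_ WT cells, and at 37295 and 17.3 in confined cPLA_2_ WT cells.

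The LPS libraries spread widely for *Il1r2*, and along the same libraries as *Ddx3y*. *Il1r2* was at 12388, 18941 and 15323 normalized counts in replicates 1, 2 and 3 labelled cPLA_2_ WT and at 19135, 13157 and 16187 in those labelled cPLA_2_ KO. It was lowest where *Ddx3y* was highest, in replicate 1 labelled cPLA_2_ WT and replicate 2 labelled cPLA_2_ KO, and highest where *Ddx3y* was at 0 and 2.12. Over both labels LPS gave a log2 change of 0.32 (SE 0.08, adjusted p = 0.00109) with overlap, and -0.18 (adjusted p = 0.0659) with the same total per library. The part of sex or donor in this spread was not tested.

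*Il18bp*, whose product captures IL-18, rose with confinement in cPLA_2_ WT cells, from 273, 296 and 268 to 519.9, 488 and 486 normalized counts. In cPLA_2_ KO cells it was at 255, 299.7 and 225 before and 325, 271 and 285 after confinement. The cPLA_2_ WT groups did not overlap and the cPLA_2_ KO groups did. The change was 1.78-fold in cPLA_2_ WT cells (log2 fold change 0.83, SE 0.10, adjusted p = 5.4e-07) and gave 0.18 (95% interval -0.03 to 0.40, adjusted p = 0.163) in cPLA_2_ KO cells, with an interaction of -0.65 (SE 0.15, adjusted p = 0.00192). Without replicate 2 of nonconfined cPLA_2_ KO cells the change in cPLA_2_ KO cells was 0.29 (adjusted p = 0.029). Over the fits without 1 library it ran from 0.08 to 0.29. LPS raised the gene 2.42-fold (log2 fold change 1.27, SE 0.07, adjusted p = 8.43e-13). The ratio of *Il18bp* to *Il18* per kb of exon was 0.630 to 0.752 in cPLA_2_ WT and 0.330 to 0.485 in cPLA_2_ KO libraries before confinement and 1.25 to 1.36 and 0.588 to 0.822 after it, and it was 0.853 to 0.933 and 0.808 to 0.999 in LPS libraries labelled cPLA_2_ WT and cPLA_2_ KO. It was highest in confined cPLA_2_ WT libraries, which overlapped with no other group.

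The signalling receptor *Il1r1* was the least abundant of the 10 genes per kb of exon in each group. It was at 31.2, 41.8 and 41.3 normalized counts in nonconfined cPLA_2_ WT and 21.9, 42.8 and 20.4 in nonconfined cPLA_2_ KO libraries. In confined cPLA_2_ WT libraries it was at 114, 97.8 and 93.6, above the other 15 libraries, and in confined cPLA_2_ KO libraries at 37.8, 48.0 and 41.0. It rose with confinement in cPLA_2_ WT cells (log2 fold change 1.40, SE 0.29, adjusted p = 0.00026). In cPLA_2_ KO cells the estimate was 0.63 (95% interval 0.03 to 1.23, adjusted p = 0.0786), or 0.96 (adjusted p = 0.00916) without replicate 2 of nonconfined cPLA_2_ KO cells. Over the fits without 1 library it ran from 0.44 to 0.96. The 2 changes were not shown to differ, since the interaction was -0.77 (SE 0.41, adjusted p = 0.179), although confined cPLA_2_ KO cells lay below confined cPLA_2_ WT cells (log2 fold change -1.25, SE 0.29, adjusted p = 0.0014). With any 1 library left out, the interaction lay between -0.96 and -0.44 and was not called. At these counts a small difference could have been missed. LPS libraries held 32.3, 44.9 and 21.5 and 48.8, 52.6 and 55.5 under the labels cPLA_2_ WT and cPLA_2_ KO, with a log2 change over both labels of 0.34 (adjusted p = 0.139). That estimate became 0.51 (adjusted p = 0.0228) without replicate 2 of nonconfined cPLA_2_ KO cells, 0.47 (adjusted p = 0.0402) without replicate 3 labelled cPLA_2_ WT and 0.94 (adjusted p = 0.00708) with the libraries labelled cPLA_2_ KO alone. With 1 library left out it ran from 0.22 to 0.51, and over all alternatives from -0.26 to 0.94. The mean was lower in LPS libraries labelled cPLA_2_ WT, at 32.9, than in nonconfined cPLA_2_ WT libraries, at 38.1.

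*Il1rap* encodes the accessory chain shared by the receptors for IL-1, IL-33 and IL-36, and it rose with each treatment. Nonconfined libraries held 399, 391 and 355 normalized counts in cPLA_2_ WT and 374, 424 and 369.8 in cPLA_2_ KO cells, confined libraries 948, 867 and 1022 and 739, 744 and 777, and LPS libraries 884, 769.8 and 874 and 794, 826 and 839 under the labels cPLA_2_ WT and cPLA_2_ KO. All 12 treated libraries were above all 6 nonconfined libraries. The rise was 2.47-fold with confinement in cPLA_2_ WT cells (log2 fold change 1.31, SE 0.08, adjusted p = 7.62e-12), 1.94-fold in cPLA_2_ KO cells (log2 fold change 0.95, SE 0.08, adjusted p = 2.99e-09) and 2.16-fold with LPS (log2 fold change 1.11, SE 0.06, adjusted p = 1.01e-13).

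The differences between the treated groups were small for *Il1rap*. Confined cPLA_2_ KO cells lay below confined cPLA_2_ WT cells without overlap (log2 fold change -0.32, SE 0.08, adjusted p = 0.00259), and the call held with any 1 library left out but not with the same total per library, which gave -0.17 (adjusted p = 0.0802). The other differences depended on single libraries. The *Il1rap* interaction of -0.35 (SE 0.11, adjusted p = 0.0254) was -0.30 (adjusted p = 0.0752) without replicate 3 of nonconfined cPLA_2_ WT, -0.29 (adjusted p = 0.0661) without replicate 2 of nonconfined cPLA_2_ KO, -0.29 (adjusted p = 0.0798) without replicate 3 of confined cPLA_2_ WT and -0.34 (adjusted p = 0.0529) without replicate 1 of confined cPLA_2_ KO cells. With the same total per library it was -0.16 (adjusted p = 0.261). Confined cPLA_2_ WT against LPS gave 0.18 (SE 0.07, adjusted p = 0.0295) with overlap, and values from 0.13 to 0.47 over all alternatives. It gave 0.18 (adjusted p = 0.0751) and 0.13 (adjusted p = 0.196) without confined cPLA_2_ WT replicates 1 and 3, 0.15 (adjusted p = 0.0689) without LPS replicate 2 labelled cPLA_2_ WT and 0.17 (adjusted p = 0.051) without LPS replicate 1 labelled cPLA_2_ KO. Confined cPLA_2_ KO against LPS gave -0.14 (adjusted p = 0.0842). That value was -0.17 (adjusted p = 0.0359) without LPS replicate 2 labelled cPLA_2_ WT, and it turned to 0.30 (adjusted p = 0.000441) with the same total per library.

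*Il1rl1*, which encodes the IL-33 receptor ST2, fell where most of the genes above rose. It was at 249, 282 and 265 normalized counts in nonconfined cPLA_2_ WT and 324, 377 and 327 in nonconfined cPLA_2_ KO libraries, and at 134, 102 and 105 in confined cPLA_2_ WT and 216, 191 and 231 in confined cPLA_2_ KO libraries. Confined libraries were below nonconfined libraries of the same genotype, and confined cPLA_2_ WT libraries were the lowest of all 18. The gene fell with confinement in cPLA_2_ WT cells (log2 fold change -1.22, SE 0.14, adjusted p = 1.05e-07) and in cPLA_2_ KO cells (log2 fold change -0.69, SE 0.14, adjusted p = 0.000281), and also with LPS (log2 fold change -0.57, SE 0.10, adjusted p = 1.93e-05), where the libraries were at 204, 157 and 196 and 198, 252 and 223 under the labels cPLA_2_ WT and cPLA_2_ KO, the latter overlapping with nonconfined cPLA_2_ WT libraries. Over all alternatives the change of *Il1rl1* with LPS ran from -1.06 to -0.51. Mast cells, basophils and eosinophils are known for ST2, and their markers are given further on.

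Whether confinement lowered *Il1rl1* less in cPLA_2_ KO cells depended on the libraries used. The interaction was 0.54 (SE 0.19, adjusted p = 0.0444). It was 0.49 (adjusted p = 0.101) and 0.54 (adjusted p = 0.0751) without nonconfined cPLA_2_ WT replicates 2 and 3, and 0.50 (adjusted p = 0.0933) and 0.50 (adjusted p = 0.0943) without nonconfined cPLA_2_ KO replicates 1 and 3. Leaving out confined cPLA_2_ WT replicates 2 and 3 gave 0.46 (adjusted p = 0.108) and 0.49 (adjusted p = 0.097), and leaving out confined cPLA_2_ KO replicates 1 and 3 gave 0.52 (adjusted p = 0.0774) and 0.47 (adjusted p = 0.109). The difference between confined cPLA_2_ KO and confined cPLA_2_ WT cells was larger than this (log2 fold change 0.90, SE 0.14, adjusted p = 1.51e-05).

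*Il1rl2*, the IL-36 receptor, changed little. It was at 746, 756 and 746 normalized counts in nonconfined cPLA_2_ WT and 469, 626 and 571 in nonconfined cPLA_2_ KO libraries, at 820.4, 771 and 944 and 747, 686 and 748 in confined libraries of these genotypes, and at 665, 649.9 and 691 and 729, 719 and 699.5 in LPS libraries labelled cPLA_2_ WT and cPLA_2_ KO. Nonconfined cPLA_2_ KO libraries were the lowest and overlapped with no other group. The gene was lower in nonconfined cPLA_2_ KO than in nonconfined cPLA_2_ WT cells (log2 fold change -0.44, SE 0.09, adjusted p = 0.00321) and rose with confinement in cPLA_2_ KO cells (log2 fold change 0.40, SE 0.09, adjusted p = 0.000924). In cPLA_2_ WT cells the change was 0.17 (95% interval -0.02 to 0.35, adjusted p = 0.115), and the interaction was 0.23 (SE 0.13, adjusted p = 0.199), so the 2 changes were not shown to differ. With the same total per library the interaction was 0.42 (adjusted p = 0.0141). Confined cPLA_2_ KO against confined cPLA_2_ WT cells gave -0.21 (adjusted p = 0.0631), or -0.28 (adjusted p = 0.0322) without replicate 2 of confined cPLA_2_ WT cells. Over the fits without 1 library that difference ran from -0.28 to -0.13. Confined cPLA_2_ WT cells were above LPS-treated cells (log2 fold change 0.28, SE 0.08, adjusted p = 0.00371), or 0.20 (adjusted p = 0.0542) without replicate 3 of confined cPLA_2_ WT cells. Over all alternatives the difference from LPS ran from 0.20 to 0.57. The LPS effect of 0.11 (adjusted p = 0.139) was 0.15 (adjusted p = 0.03) without replicate 2 of nonconfined cPLA_2_ KO cells and 0.38 (adjusted p = 0.000889) with the libraries labelled cPLA_2_ KO alone, and it turned to -0.39 (adjusted p = 1.22e-05) with the same total per library. With 1 library left out it ran from 0.05 to 0.15. Under the label cPLA_2_ WT the mean was lower with LPS, at 669, than in nonconfined libraries, at 749.

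Counted over the 10 genes, confinement in cPLA_2_ WT cells raised 7 and lowered 1, *Il1rl1*, while 28.2% of all genes tested were higher and 28.4% lower. *Il18* and *Il1rl2* were not called. In cPLA_2_ KO cells confinement raised 6 and lowered 2, *Il18* and *Il1rl1*, against 22.8% and 23.4% of all genes, and *Il18bp* and *Il1r1* were not called. The 10 genes had a median log2 change of 1.35 for cPLA_2_ WT and 0.75 for cPLA_2_ KO cells, where that of all genes tested was -0.01 and 0.01. In the interaction 7 of the 10 were lower and 1, *Il1rl1*, higher, with 15.6% of all genes lower and 10.2% higher. The 10 genes had a median interaction of -0.71, and all genes tested one of 0.05. All of these comparisons draw on the same nonconfined and confined libraries and are not independent of one another.

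**Figure D3:**
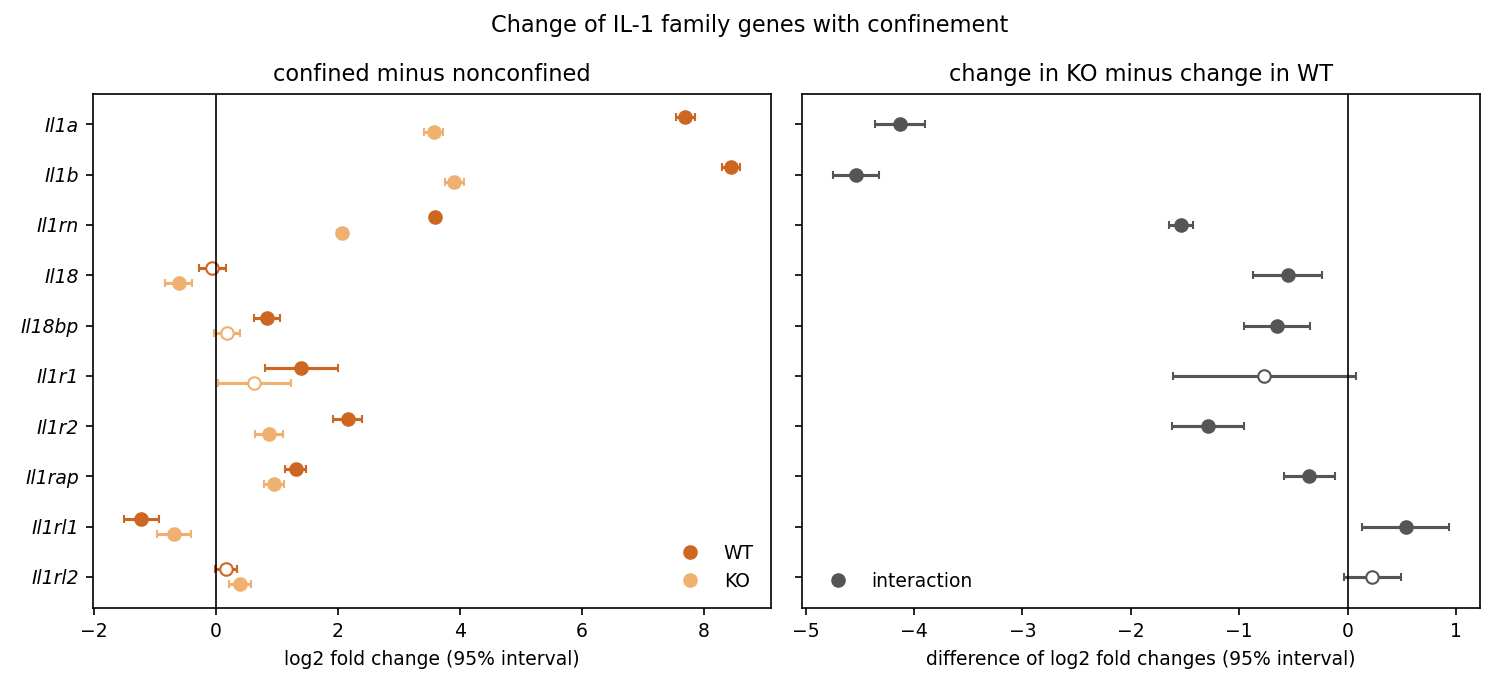
Log2 fold change with confinement (confined minus nonconfined, left) of the 10 IL-1 family genes in cPLA_2_ WT and cPLA_2_ KO cells, and the change in cPLA_2_ KO minus that in cPLA_2_ WT cells (right), with 95% intervals from limma (3 libraries in each group). Filled points were called at an adjusted p under 0.05 and open points were not. On the left, values above 0 are higher in confined cells. On the right, values below 0 mean that the change was lower in cPLA_2_ KO than in cPLA_2_ WT cells, whichever way the gene went. The nonconfined and confined libraries of a genotype give all of its values, so genes are not replicates. *Il1b* and *Il1a* had the largest changes in both genotypes, and the changes of *Il1r1* and *Il1rl2* were not shown to differ between genotypes.

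Between genotypes, 2 of the 10 genes were higher in nonconfined cPLA_2_ KO cells, *Il1rn* and *Il18*, and 1 was lower, *Il1rl2*, where 4.78% of all genes were higher and 4.11% lower. The median log2 difference was 0.05 for the 10 genes and 0.00 for all genes. In confined cells 7 of the 10 were lower in cPLA_2_ KO and 1, *Il1rl1*, was higher, with 20.6% of all genes lower and 18.8% higher and medians of -0.94 for the 10 genes and 0.04 for all. Between the LPS libraries labelled cPLA_2_ KO and cPLA_2_ WT, limma called 0 of the 10 genes in either direction, as it called 0% of all genes higher and 0% lower. At an unadjusted p under 0.05 it picked out 1 of the 10, *Il1r1* (log2 difference 0.71, adjusted p = 0.891), and edgeR and DESeq2 called 0 of the 10. With 1 library left out, the *Il1r1* difference ran from 0.45 to 0.96. When a fold change of 1.5 was also required, 145 of all 17875 genes were higher and 171 lower at an unadjusted p under 0.05 between the labels. Given the labels, this comparison does not bear on the genotype.

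LPS raised 7 of the 10 genes and lowered 1, *Il1rl1*, where 37.2% of all genes were higher and 34.3% lower. *Il1r1* and *Il1rl2* were not called. Against LPS, confined cPLA_2_ WT cells were higher in 4, *Il1r1*, *Il1r2*, *Il1rap* and *Il1rl2*, and lower in the other 6, with 24.5% of all genes higher and 29.8% lower. With the same total per library, *Il18bp* went from -0.39 to -0.10 (adjusted p = 0.348) in this comparison. *Il1rap* was at 0.17 (adjusted p = 0.0938) against the LPS libraries labelled cPLA_2_ WT alone. Confined cPLA_2_ KO cells were higher in 1, *Il1r2*, and lower in 5, with 30.3% of all genes higher and 32.5% lower, and *Il1r1*, *Il1rap*, *Il1rl1* and *Il1rl2* were not called. With the same total per library, *Il1rap* (0.30, adjusted p = 0.000441), *Il1rl1* (0.50, adjusted p = 0.000455) and *Il1rl2* (0.51, adjusted p = 6.24e-06) were called higher. The medians of the 10 genes were 0.81 for LPS, -0.26 for confined cPLA_2_ WT against LPS and -0.45 for confined cPLA_2_ KO against LPS, and those of all genes 0.02, -0.01 and 0.03. Scaling each library to the same total shifted the median of all genes tested to -0.23 for confinement in cPLA_2_ WT cells, 0.24 for the interaction, 0.19 for cPLA_2_ KO against cPLA_2_ WT in confined cells, -0.46 for LPS, 0.27 for confined cPLA_2_ WT against LPS and 0.46 for confined cPLA_2_ KO against LPS. The changes of *Il1a*, *Il1b* and *Il1rn* with confinement, with LPS and in the interaction were larger than these shifts.

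The order of the 6 groups was shared by *Il1a* and *Il1b*, from nonconfined cPLA_2_ WT and nonconfined cPLA_2_ KO, which overlapped, over confined cPLA_2_ KO and confined cPLA_2_ WT to LPS labelled cPLA_2_ WT and LPS labelled cPLA_2_ KO, which overlapped. *Il18bp* had nonconfined cPLA_2_ KO, nonconfined cPLA_2_ WT and confined cPLA_2_ KO together at the bottom, then confined cPLA_2_ WT, then the overlapping LPS groups. *Il1rap* ran from the overlapping nonconfined groups over confined cPLA_2_ KO and LPS labelled cPLA_2_ KO to LPS labelled cPLA_2_ WT, which overlapped with both of these, and confined cPLA_2_ WT, which overlapped with LPS labelled cPLA_2_ WT. *Il1r2* ran from nonconfined cPLA_2_ WT over nonconfined cPLA_2_ KO and both LPS groups, which overlapped, to confined cPLA_2_ KO and confined cPLA_2_ WT. *Il18* had confined cPLA_2_ WT, nonconfined cPLA_2_ WT and confined cPLA_2_ KO overlapping below nonconfined cPLA_2_ KO and the LPS groups, which overlapped as well. *Il1r1* was alike in nonconfined cPLA_2_ KO, LPS labelled cPLA_2_ WT, nonconfined cPLA_2_ WT and confined cPLA_2_ KO, then higher in LPS labelled cPLA_2_ KO and highest in confined cPLA_2_ WT. *Il1rl1* ran from confined cPLA_2_ WT, which overlapped with no other group, over LPS labelled cPLA_2_ WT, confined cPLA_2_ KO, LPS labelled cPLA_2_ KO and nonconfined cPLA_2_ WT, each of these overlapping with the next, to nonconfined cPLA_2_ KO, which stood apart. *Il1rl2* ran from nonconfined cPLA_2_ KO over LPS labelled cPLA_2_ WT, LPS labelled cPLA_2_ KO, confined cPLA_2_ KO and nonconfined cPLA_2_ WT to confined cPLA_2_ WT, and of these confined cPLA_2_ KO overlapped with both LPS groups and with nonconfined cPLA_2_ WT.

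The share of the library taken up by these transcripts shows the scale of the response. The 10 genes held 0.0772 to 0.0797% of all reads on genes in nonconfined cPLA_2_ WT and 0.0837 to 0.0863% in nonconfined cPLA_2_ KO libraries. They held 0.954 to 0.974% in confined cPLA_2_ WT, 0.255 to 0.259% in confined cPLA_2_ KO, and 1.59 to 1.70% and 1.65 to 1.77% in LPS libraries labelled cPLA_2_ WT and cPLA_2_ KO. No treatment overlapped with another, and confined cPLA_2_ WT lay above confined cPLA_2_ KO libraries. By normalized counts *Il1a* ranked 8605 and *Il1b* 9095 of 62197 genes in nonconfined cPLA_2_ WT cells, 1618 and 1582 in confined cPLA_2_ KO cells, 38 and 25 in confined cPLA_2_ WT cells, and 5 and 9 in LPS libraries labelled cPLA_2_ WT. *Il1rn* was more abundant at the start, with rank 430 in nonconfined cPLA_2_ WT, 55 in confined cPLA_2_ KO and 15 in confined cPLA_2_ WT cells. Compared per kb of exon, confined cPLA_2_ WT cells had 75721 normalized counts of *Il1b*, 60628 of *Il1rn*, 37295 of *Il1r2* and 22054 of *Il1a*, and between 17.3 (*Il1r1*) and 297 (*Il18bp*) of the other 6 genes. The place of *Il1a* in this order depends on the exon length taken for it. Confined cPLA_2_ KO cells had 22816 of *Il1rn*, 17125 of *Il1r2*, 3368 of *Il1b* and 1312 of *Il1a*. In nonconfined cPLA_2_ WT cells the same scale gave 8333 for *Il1r2*, 4994 for *Il1rn*, 216 for *Il1b* and 106 for *Il1a*, so that the antagonist and the decoy outnumbered both cytokines.

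Of 11 other IL-1 family ligands and receptors, 6 had enough counts to be tested. *Il33* and *Il36a* passed this filter only through confined or LPS libraries. The numbers raised by treatment and the medians below therefore follow in part from the filter. Confinement raised 3 and lowered 2 of the 6 in cPLA_2_ WT cells and raised 3 and lowered 1 in cPLA_2_ KO cells, with median log2 changes of 1.69 and 0.01 where all genes had -0.01 and 0.01. In the interaction 1 was higher and 3 lower (median -0.31, all genes 0.05). Among nonconfined cells 1 of the 6 was higher in cPLA_2_ KO, and among confined cells 1 was higher and 2 lower. LPS raised 3 and lowered 2. Beside these counts stand 28.2% of all genes higher and 28.4% lower with confinement in cPLA_2_ WT cells, 22.8% and 23.4% in cPLA_2_ KO cells, 10.2% and 15.6% in the interaction, 4.78% and 4.11% between nonconfined genotypes, 18.8% and 20.6% between confined genotypes and 37.2% and 34.3% with LPS.

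The IL-36 cytokines act on the *Il1rl2* receptor, and *Il36g* was the most abundant of them. It was at 576, 616 and 646 normalized counts in cPLA_2_ WT and 1347, 1273 and 1247 in cPLA_2_ KO libraries before confinement and at 6098, 6206 and 5795 and 7804, 7368 and 7702 after it. Confinement raised it in both genotypes (log2 fold change 3.30, adjusted p = 1.36e-13 in cPLA_2_ WT and 2.56, adjusted p = 2.68e-11 in cPLA_2_ KO cells). Its interaction of -0.73 (adjusted p = 0.0192) came with a higher start in cPLA_2_ KO cells (1.07, adjusted p = 0.000215), and confined cPLA_2_ KO libraries lay above confined cPLA_2_ WT libraries without being called (0.34, adjusted p = 0.102). *Il36a* was near 0 before confinement, at 0.853 to 3.05 in cPLA_2_ WT and 0 to 1.86 in cPLA_2_ KO libraries, and was at 154, 145 and 168 in confined cPLA_2_ WT and 15.1, 22.4 and 19.1 in confined cPLA_2_ KO libraries. In LPS libraries *Il36a* was at 997, 602 and 775 and 578, 1006 and 811, and *Il36g* at 15769, 8984 and 12804 and 9487, 17104 and 13594, under the labels cPLA_2_ WT and cPLA_2_ KO. Both were highest where *Ddx3y* was highest and lowest where it was at or near 0, opposite to *Il1r2*.

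*Il33*, the ligand of ST2, was at 48.3, 24.9 and 64.0 normalized counts in confined cPLA_2_ WT libraries and at 0 in all 3 confined cPLA_2_ KO libraries. Nonconfined libraries held 0 to 1.97 in cPLA_2_ WT and 0 to 1.57 in cPLA_2_ KO cells, and LPS libraries 25.8 to 88.8 and 25.2 to 58.0 under the labels cPLA_2_ WT and cPLA_2_ KO. *Il36b* was at most 6.40, and *Il36rn*, *Il1f10*, *Il1rapl1* and *Il1rapl2* were at 0 in all 18 libraries. Among receptors, *Il18r1* fell with confinement in cPLA_2_ WT cells (log2 fold change -1.16, SE 0.18, adjusted p = 1.13e-05), with libraries at 145 to 202 before and 69.9 to 89.9 after it, and was at 235 to 268 before and 169.5 to 223 after confinement of cPLA_2_ KO cells (interaction 0.76, adjusted p = 0.031). *Il18rap* was at 477 to 532 in confined cPLA_2_ WT and 543 to 688 in confined cPLA_2_ KO libraries and rose in cPLA_2_ KO cells (log2 fold change 0.42, SE 0.12, adjusted p = 0.00623). *Sigirr*, a negative regulator of IL-1 receptor signalling, fell with confinement in cPLA_2_ WT (log2 fold change -0.98, SE 0.14, adjusted p = 5.02e-06) and cPLA_2_ KO cells (log2 fold change -0.85, SE 0.14, adjusted p = 4.61e-05) and with LPS (log2 fold change -1.69, SE 0.10, adjusted p = 1.78e-12).

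Genes for the processing and release of IL-1 also changed with confinement. Of 12 such genes, inflammasome sensors, caspases and pore proteins among them, 8 rose and 4 fell in cPLA_2_ WT cells and 5 rose and 3 fell in cPLA_2_ KO cells, with median changes of 0.48 and 0.16. Of all genes tested, 28.2% rose and 28.4% fell in cPLA_2_ WT cells and 22.8% rose and 23.4% fell in cPLA_2_ KO cells, with medians of -0.01 and 0.01. *Casp4*, which encodes the caspase that senses cytosolic LPS, rose from 647 ± 31.8 to 4776 ± 119 normalized counts (mean ± SD of 3 libraries) in cPLA_2_ WT cells (log2 fold change 2.88, SE 0.08, adjusted p = 5.05e-18) and from 801 ± 53.1 to 1235 ± 52.9 in cPLA_2_ KO cells (log2 fold change 0.63, SE 0.08, adjusted p = 8.47e-07). *Mefv*, the gene for the sensor pyrin, had log2 fold changes of 3.03 in cPLA_2_ WT (adjusted p = 3.88e-17) and 0.96 in cPLA_2_ KO cells (adjusted p = 1.99e-08). *Ninj1*, which encodes a protein of plasma membrane rupture, had changes of 2.15 (adjusted p = 1.7e-14) and 1.73 (adjusted p = 2.13e-12). *Nlrp1b*, which encodes another inflammasome sensor, had the largest fall in cPLA_2_ WT cells (log2 fold change -1.03, SE 0.14, adjusted p = 2.53e-06). *Pycard*, the gene for the inflammasome adaptor ASC, fell in cPLA_2_ WT (log2 fold change -0.99, SE 0.09, adjusted p = 3.22e-09) and in cPLA_2_ KO cells (log2 fold change -0.66, SE 0.09, adjusted p = 2.55e-06). In the interaction 8 of the 12 were lower and 2 higher (median -0.36, all genes 0.05, with 15.6% of all genes lower and 10.2% higher), the higher ones being *Nlrp1b* at 1.10 (adjusted p = 0.000263) and the gasdermin gene *Gsdme* at 0.75 (adjusted p = 0.00291). The lowest were *Casp4* at -2.26 (adjusted p = 4.14e-13), *Mefv* at -2.07 (adjusted p = 3.3e-11) and *Nlrp3*, the sensor most often tied to IL-1β, at -1.53 (adjusted p = 3.3e-14). *Nlrp3* went from 6276, 5828 and 5941 to 14022, 14152 and 13924 in cPLA_2_ WT libraries and from 5443, 5987 and 5753 to 4808, 4433 and 4687 in cPLA_2_ KO libraries, and so rose in cPLA_2_ WT (log2 fold change 1.22, SE 0.04, adjusted p = 1.17e-15) and fell in cPLA_2_ KO cells (log2 fold change -0.30, SE 0.04, adjusted p = 9.75e-06). With confinement, the mean of *Casp1* went from 2687 to 3803 normalized counts in cPLA_2_ WT and from 2749 to 2608 in cPLA_2_ KO cells. LPS raised 9 of the 12 and lowered 3, where 37.2% of all genes were higher and 34.3% lower. Among nonconfined cells 2 were higher in cPLA_2_ KO, *Casp4* and *Ninj1* (4.78% of all genes), and among confined cells 3 were higher and 8 lower (18.8% and 20.6% of all genes). Against LPS, 3 were higher and 6 lower in confined cPLA_2_ WT, *Casp1* at -0.79 (adjusted p = 2.28e-11), and 3 higher and 9 lower in confined cPLA_2_ KO cells, with 24.5% of all genes higher and 29.8% lower in confined cPLA_2_ WT and 30.3% higher and 32.5% lower in confined cPLA_2_ KO cells.

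Of 18 genes that carry the signal of IL-1 receptors, confinement raised 13 and lowered 2 in cPLA_2_ WT cells and raised 12 and lowered 2 in cPLA_2_ KO cells, with median changes of 0.54 and 0.24. The shares of all genes were 28.2% higher and 28.4% lower in cPLA_2_ WT and 22.8% higher and 23.4% lower in cPLA_2_ KO cells. The largest change was in *Nfkbiz*, which encodes the nuclear protein IκBζ. It was at 331, 283 and 284 normalized counts in cPLA_2_ WT and 258, 303 and 307 in cPLA_2_ KO libraries before confinement and at 16332, 16112 and 16025 and 1000.3, 1025 and 969.6 after it. Confined libraries lay above nonconfined ones and confined cPLA_2_ WT above confined cPLA_2_ KO libraries. The increase was 54.0-fold in cPLA_2_ WT (log2 fold change 5.75, SE 0.07, adjusted p = 3.12e-24) and 3.45-fold in cPLA_2_ KO cells (log2 fold change 1.79, SE 0.07, adjusted p = 7.56e-15), with an interaction of -3.97 (adjusted p = 3.33e-18). *Irak3*, the gene for an inhibitory kinase homologue, had an interaction of -1.27 (adjusted p = 9.18e-10) and the ubiquitin ligase gene *Peli1* one of -1.77 (adjusted p = 1.66e-12), whereas *Irak1* was at 0.46 (adjusted p = 0.000315) and *Ikbkg*, the gene for NEMO, at 0.36 (adjusted p = 0.036). In all, 8 of the 18 were lower and 2 higher in the interaction (median -0.21, all genes 0.05), where 15.6% of all genes were lower and 10.2% higher. *Map3k8* was the one gene of the 18 called between nonconfined genotypes (log2 fold change 0.28, SE 0.07, adjusted p = 0.0167), with 4.78% of all genes higher and 4.11% lower, and between confined genotypes 3 were higher and 9 lower in cPLA_2_ KO, with 18.8% of all genes higher and 20.6% lower. LPS raised 13 and lowered 5, beside 37.2% and 34.3% of all genes. Against LPS 3 were higher and 11 lower in confined cPLA_2_ WT cells (24.5% and 29.8% of all genes) and 5 higher and 11 lower in confined cPLA_2_ KO cells (30.3% and 32.5% of all genes). Between LPS labels limma called 0 of the other family, processing and signalling genes, and at an unadjusted p under 0.05 their count was 0 as well.

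Markers of other cell types moved with genotype and treatment, and their part in the results above was not tested. The counts of markers called stand beside the shares of all genes, which were 28.2% higher and 28.4% lower with confinement in cPLA_2_ WT cells, 22.8% and 23.4% in cPLA_2_ KO cells, 4.78% and 4.11% between nonconfined genotypes, 18.8% and 20.6% between confined genotypes and 37.2% and 34.3% with LPS. In the interaction, with 10.2% of all genes higher and 15.6% lower, 0 of 10 DC markers were higher and 6 lower (median -0.39), and 6 of 10 neutrophil markers were higher and 1 lower (median 0.49), where the median of all genes was 0.05. Of the other lists, 4 of 9 mast cell and basophil markers were higher and 2 lower, 1 of 8 eosinophil markers was higher and 1 lower, 0 of 7 macrophage markers were higher and 2 lower, and 0 of 9 T cell, ILC and B cell markers were called. Neutrophil markers, of which *S100a9* was the most abundant, summed to 253295, 258500.0 and 256573 normalized counts in cPLA_2_ WT and 390301, 354523 and 378765 in cPLA_2_ KO libraries before confinement and to 172680.0, 165072 and 163010.0 and 360230.0, 369734 and 355829 after it, with 10 of 10 higher in nonconfined and 9 of 10 in confined cPLA_2_ KO than cPLA_2_ WT cells. In LPS libraries they summed to 323156, 301662 and 305629 and 288311, 327507 and 307450.0 under the labels cPLA_2_ WT and cPLA_2_ KO. Confinement lowered 7 of the 10 and raised 0 in cPLA_2_ WT cells, and in cPLA_2_ KO cells it lowered 3 and raised 2, close to the shares of all genes. LPS raised 5 and lowered 4. Eosinophil markers, with *Prg2* the most abundant, summed to 31718, 31516 and 31416, 76986, 71809 and 73778, 9046, 8476 and 8377 and 21900.0, 21454 and 22325 in these 4 groups, and to 44625, 26034 and 35758 and 25977, 44619 and 36313 in LPS libraries. Confinement lowered 6 of 8 and raised 1 in cPLA_2_ WT cells and lowered 7 of 8 and raised 0 in cPLA_2_ KO cells. In cPLA_2_ KO against cPLA_2_ WT cells 6 of 8 were higher and 1 lower before confinement, and 6 higher and 2 lower after it. LPS lowered 7 of 8 and raised 0. In the LPS libraries their sums were highest where *Ddx3y* was highest.

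Mast cell and basophil markers were called lower with confinement for 6 of 9 tested in cPLA_2_ WT and 7 of 9 in cPLA_2_ KO cells (28.4% and 23.4% of all genes), and higher for 2 in each (28.2% and 22.8% of all genes), with *Mcpt4* below 10 counts in all libraries. LPS raised 2 of the 9 and lowered 7, beside 37.2% and 34.3% of all genes. Their most abundant gene over all libraries, *Hdc*, itself rose with confinement in cPLA_2_ WT cells, from 735 ± 7.42 to 12369.5 ± 271. The other markers of the list summed on average to 14429.7 and 9894 in nonconfined cPLA_2_ KO and cPLA_2_ WT cells and 7535 and 4384 in confined cPLA_2_ KO and cPLA_2_ WT cells, the order that *Il1rl1* had in these 4 groups. In LPS libraries labelled cPLA_2_ WT and cPLA_2_ KO they came to 9625 and 9826, near nonconfined cPLA_2_ WT cells, where *Il1rl1* had means of 186 and 224 against 266. With *Hdc* the sums per library were 10554, 10619.7 and 10715, then 15752, 15306 and 15351, then 17005, 16354 and 16900.5 and 9093, 8804 and 9083, and 19503, 21609.8 and 20285 and 21986, 19636 and 20782 in LPS libraries. The order of *Il1rl1* was thus not that of the full list. Confined cPLA_2_ WT libraries, lowest in *Il1rl1*, had the highest full sums of the nonconfined and confined groups.

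DC markers fell with confinement, 9 of 10 in cPLA_2_ WT and 10 of 10 in cPLA_2_ KO cells, where 28.4% and 23.4% of all genes fell, and with LPS 8 of 10 rose and 1 fell, where 37.2% and 34.3% of all genes did. Their sums were 451915, 425757 and 430994 in cPLA_2_ WT and 533312, 503531 and 522955 in cPLA_2_ KO libraries before confinement and 388201, 359773 and 371529 and 360896, 346892 and 359709 after it, and 684121, 590112 and 625267 and 592489, 668665 and 640394 in LPS libraries, so the DC sum fell while *Il1a*, *Il1b* and *Il1rn* rose with confinement. Most of the DC sum came from the MHC class II genes *Cd74*, *H2-Aa* and *H2-Ab1*. Their means in confined cPLA_2_ WT cells were 208673, 74663 and 71825. Macrophage markers, with *Adgre1* the most abundant and *Vsig4* at 0 and *Cd163* and *Timd4* below 10 in all libraries, summed to 15192, 14986 and 15328, 17206, 18131 and 17861, 13617, 12900.3 and 12919 and 13216, 12191 and 12865 in nonconfined and confined groups in the same order, and to 34542, 28188 and 30722 and 27229, 33324 and 30664 in LPS libraries. The rise of the sum with LPS was not that of the list, since 3 of the 7 tested were higher and 4 lower (median -0.35, all genes 0.02). With confinement, 4 of 7 tested were lower and 1 higher in cPLA_2_ WT and 5 lower and 1 higher in cPLA_2_ KO cells, beside 28.2% of all genes higher in cPLA_2_ WT and 22.8% in cPLA_2_ KO cells. The 9 T cell, ILC and B cell markers found, led by *Il7r*, summed to 3353, 3514 and 3448, 3936, 3756 and 3886, 4530.0, 4426 and 4486 and 3918, 4112 and 3733, and to 3587, 3703 and 3725 and 3739, 3718 and 3775. Without *Il7r* their means were 2482 and 3033 in nonconfined cPLA_2_ WT and cPLA_2_ KO cells, 1058 and 1278 in confined cPLA_2_ WT and cPLA_2_ KO cells, and 729 and 705 in LPS libraries labelled cPLA_2_ WT and cPLA_2_ KO, so the sum of the others was lower after confinement. Of the 9, 3 rose and 3 fell with confinement in each genotype, where 28.2% of all genes rose and 28.4% fell in cPLA_2_ WT and 22.8% rose and 23.4% fell in cPLA_2_ KO cells.

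The genes most like each of the 10 over the 18 libraries were found among 10422 genes averaging 100 normalized counts or more, by Pearson's r of the log2 values (n = 18, in 6 groups of 3, so the points share their groups). For *Il1b* they were *Rgs1* (r = 0.999), *Tnfrsf9* (r = 0.997) and *Src* (r = 0.997), and for *Il1a* *Slc7a2* (r = 0.998), *Ppp1r15a* (r = 0.998) and *Atf3* (r = 0.998). The most like *Il1rn* were *Inhba* (r = 0.999), *Rilpl2* (r = 0.996) and *Dusp5* (r = 0.996). *Il18* was most like *Csf3r* (r = 0.960), the receptor gene for G-CSF and one of the neutrophil markers, *H2-Eb1* (r = 0.950) and *Adam19* (r = 0.943), and *Il18bp* most like *Eif4g2* (r = 0.990). For the receptors the first genes were *Chp1* (r = 0.991) for *Il1r2*, *Ndel1* (r = 0.991) for *Il1rap*, *F2r* (r = 0.956) for *Il1rl1*, *Zc3h6* (r = 0.895) for *Il1rl2* and *Tulp3* (r = 0.874) for *Il1r1*. Among the 10 themselves, r was 0.996 between *Il1a* and *Il1b*, 0.988 between *Il1b* and *Il1rn* and 0.960 between *Il1rn* and *Il1rap*. It was -0.853 between *Il1r2* and *Il1rl1*, the lowest of the 45 pairs, and 0.0680 between *Il18* and *Il1rap*.

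In the genome several of these genes are neighbours. On chromosome 1 of GRCm39 the plus strand carries *Il1r2* from 40113239 to 40164391, then *Il1r1* from 40264174, *Il1rl2* from 40363708 and *Il1rl1* from 40468730, followed by *Il18r1* and *Il18rap*, which ends at 40590865. Neighbours in this run moved in opposite directions with confinement of cPLA_2_ WT cells, *Il1r2* and *Il1r1* up and *Il1rl1* and *Il18r1* down. On chromosome 2, *Il1rn* lies on the plus strand from 24226865 to 24241506 in a run with *Il36b*, *Il36g*, *Il36a*, *Il36rn* and *Il1f10*. *Il1a* (129140291 to 129152098) and *Il1b* (129206490 to 129213059) lie farther along chromosome 2 on the minus strand, next to each other. Of the remaining genes, *Il18* is on chromosome 9, *Il18bp* on chromosome 7 and *Il1rap* on chromosome 16.

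Because *Il1a*, *Il1b* and *Il1rn* moved together in these libraries, the 250 bases before their starts are shown, from the promoter table of RefSeq on build GRCm38.p6, in which all 3 were matched by symbol. *Il1rn* has 3 entries, of which the first 2 are shown, since the window of the third overlaps that of the second. Both strands were searched for the TATA box TATAAA, for the AP-1 motif TGANTCA, for the C/EBP motif TTGCNNAA and for the NF-κB consensus, and capitals mark the matches. The *Il1a* window (chr2:129309973-129310222, minus strand) holds TATAAA 32 to 27 bases and TGACTCA 12 to 6 bases before the start. The *Il1b* window (chr2:129371140-129371389, minus strand) holds TATAAA 31 to 26 bases before the start. The windows of *Il1rn* entry 1 (chr2:24336610-24336859, plus strand) and entry 2 (chr2:24345041-24345290, plus strand) hold TGAGTCA 141 to 135 bases before the start and no match. Neither TTGCNNAA nor the NF-κB consensus is written in these 4 windows. Of 32851 promoters in the table, 12.4% hold TATAAA, 6.75% TGANTCA, 9.56% TTGCNNAA and 7.25% the NF-κB consensus. A match is a run of letters and was not tested for function.
Il1a: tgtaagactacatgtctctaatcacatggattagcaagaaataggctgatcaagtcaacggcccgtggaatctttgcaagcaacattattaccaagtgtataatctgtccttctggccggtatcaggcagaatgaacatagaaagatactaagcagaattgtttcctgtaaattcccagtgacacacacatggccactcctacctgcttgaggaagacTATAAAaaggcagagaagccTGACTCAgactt
Il1b: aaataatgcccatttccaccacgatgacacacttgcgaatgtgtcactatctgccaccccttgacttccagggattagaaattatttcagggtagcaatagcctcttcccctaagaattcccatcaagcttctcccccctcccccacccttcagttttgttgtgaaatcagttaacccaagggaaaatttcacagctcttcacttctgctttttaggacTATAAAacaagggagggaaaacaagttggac
Il1rn entry 1: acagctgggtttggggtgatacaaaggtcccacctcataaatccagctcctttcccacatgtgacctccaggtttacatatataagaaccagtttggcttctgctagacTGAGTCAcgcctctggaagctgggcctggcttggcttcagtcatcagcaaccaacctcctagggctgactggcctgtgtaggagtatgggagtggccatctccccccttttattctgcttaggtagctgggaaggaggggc
Il1rn entry 2: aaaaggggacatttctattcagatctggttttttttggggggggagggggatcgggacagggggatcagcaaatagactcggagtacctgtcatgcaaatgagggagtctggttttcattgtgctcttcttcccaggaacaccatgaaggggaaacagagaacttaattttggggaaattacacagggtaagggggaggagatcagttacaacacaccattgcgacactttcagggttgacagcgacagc

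Several limits apply to all of these values. They are mRNA levels of bulk cultures, so they show neither cleavage nor release of the cytokines, nor which cells made them. There are 3 libraries in each group, called biological replicates, and whether they come from separate mice is not stated. The nonconfined and confined cPLA_2_ KO libraries differ from the cPLA_2_ WT ones in a Y-linked gene as well as in *Pla2g4a*, and the LPS libraries cannot be assigned to a genotype. Confined and LPS-treated cells were each compared with cells collected at the end of culture, and the kit of each library is not known.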

How the data were processed

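The signal is read counts per gene that the authors deposited after alignment with STAR 2.7.5a to mm39 and counting on the FAST DB annotation, with counts already divided by a size factor for each library. Whole reads were recovered for 100% of the values (tolerance 0.01, largest deviation 6.98e-10), and edgeR and DESeq2 were run on these. Normalized counts plus 1 were put on the log2 scale, and genes with at least 10 counts in 3 libraries, 17875 in all, were fitted with limma 3.58.1 (trend) in 1 model of all 18 libraries. P-values were two-sided and adjusted by Benjamini-Hochberg over these genes, and a gene was called at an adjusted p under 0.05. The members and the lists were chosen with earlier results of these data known. From the processing and signalling lists, the genes named were picked from the called ones, averaging 100 or more normalized counts, with the largest changes in each direction, up to 3 for each comparison, and not all of these are named. Alternatives changed the pseudocount, filter, scaling, tool, model, cutoff or libraries. The scripts were tested on simulated data. R 4.3.3, edgeR 4.0.16, DESeq2 1.42.0 and matplotlib 3.10.9 were used.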

Additional observations from a re-analysis of the deposited data

Results flagged for a closer look

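The change with confinement was called different between genotypes for 8 of the 10 genes, 7 lower and 1 higher in cPLA_2_ KO cells, where 15.6% of all genes were lower and 10.2% higher (limma). On the log2 scale, the change in cPLA_2_ KO cells minus that in cPLA_2_ WT cells was -4.54 for *Il1b*, -4.13 for *Il1a*, -1.54 for *Il1rn*, -1.29 for *Il1r2*, -0.65 for *Il18bp*, -0.55 for *Il18*, -0.35 for *Il1rap* and 0.54 for *Il1rl1*. These calls are not equally firm. That of *Il1rl1* was lost in 8 of the 12 fits without 1 library and with no filter, TMM scaling, edgeR and the replicate block. That of *Il1rap* was lost in 4 of the 12 and, with the same total per library, was -0.16 (adjusted p = 0.261), and that of *Il18* was then -0.36 (adjusted p = 0.0558). The genotype cannot be told apart from the sex or the donor of the cells.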

How the results depend on the processing

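Of 1881 values of single genes under the alternatives, 1777 kept their call, 78 lost it, 22 gained one and 4 were reversed in sign. All 4 reversals came from scaling each library to the same total: the LPS effect was -0.18 for *Il1r2* and -0.39 for *Il1rl2*, confined cPLA_2_ WT against LPS was 0.15 for *Il1rn*, and confined cPLA_2_ KO against LPS was 0.30 for *Il1rap*. The cause was not tested.

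With the same total per library, 2 of the 10 genes were lower with confinement in cPLA_2_ WT cells (7380 of all 17875 genes). In the interaction 2 were higher (4741 of all). Against cPLA_2_ WT cells, 1 was higher in nonconfined (757 of all) and 2 in confined cPLA_2_ KO cells (6001 of all). With LPS 2 were lower (10160 of all), and 4 were higher in confined cPLA_2_ KO cells than with LPS (10122 of all). Calls were also lost with this scaling, with 5 genes lower in the interaction (1962 of all 17875) and 6 lower in confined cPLA_2_ KO than cPLA_2_ WT cells (2604 of all). With LPS 5 were higher (3640 of all). In confined cPLA_2_ WT cells against LPS 4 were lower (2679 of all) and 5 higher (8056 of all). In the interaction, 0 genes were higher with no filter (1601 of all 31495), with TMM scaling (1513 of all 17875) or with edgeR (1561 of all 17875). Among nonconfined cells, 1 gene was higher in cPLA_2_ KO with no filter and with only the groups compared in the fit, and 3 were with DESeq2, where *Il1rl1* was 0.37 (adjusted p = 0.0454). Over all genes these fits called 711 of 31495, 848 of 17875 and 1080 of 17875 higher. The fit of the nonconfined and confined libraries alone, added after the data had been seen, also had 3, with *Il1r2* at 0.17 (adjusted p = 0.0111). It called 1208 of all 17875 genes higher.

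When a log2 fold change above 1 was also required, confinement in cPLA_2_ KO cells raised 3 genes and lowered 0 (1150 and 989 of all 17875). In cPLA_2_ WT cells it raised 6 and lowered 1 (2038 and 1362 of all), and in the interaction 0 were higher and 4 lower (198 and 1173 of all). By this rule 0 were higher and 0 lower in nonconfined cPLA_2_ KO cells (152 and 54 of all genes). In confined cPLA_2_ KO against confined cPLA_2_ WT cells 0 were higher and 5 lower (498 and 1307 of all). LPS raised 5 and lowered 0 (2791 and 2397 of all). Against LPS, 2 were higher and 2 lower in confined cPLA_2_ WT cells (1245 and 1402 of all genes). In confined cPLA_2_ KO cells 0 were higher and 4 lower than with LPS (1914 and 2313 of all). With an unadjusted p and a fold change of 1.5, 0 genes were higher and 5 lower in the interaction (1019 and 1937 of all 17875). In nonconfined cPLA_2_ KO cells 1 was higher and 0 lower (601 and 399 of all), and in confined cPLA_2_ KO cells 1 was higher and 6 lower (1366 and 2109 of all). Between LPS labels 1 was higher and 0 lower (145 and 171 of all). LPS raised 5 and lowered 0 (4272 and 3966 of all). In confined cPLA_2_ WT cells 2 were higher and 4 lower than with LPS (2490 and 2488 of all).

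With the replicate number as a block, which the labels do not call for, the interaction of *Il1rl1* was 0.54 (adjusted p = 0.0621), so 0 genes were higher in the interaction. Of all 17875 genes, 1716 were higher. Once the mean of each group was subtracted, correlations between libraries of the same replicate number in different groups ranged from -0.142 to 0.338.

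Leaving out 1 library at a time, the number of genes higher in the interaction ranged from 0 to 1 and lower from 6 to 7. Higher genes numbered 1 to 2 in nonconfined cPLA_2_ KO cells, 2 to 4 in confined cPLA_2_ WT cells against LPS, 6 to 8 for confinement in cPLA_2_ KO cells and 7 to 9 for LPS. Lower genes numbered 7 to 8 in confined cPLA_2_ KO against cPLA_2_ WT cells and 5 to 6 in confined cPLA_2_ KO cells against LPS.

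*Il1rl2* was called lower in confined cPLA_2_ KO cells with a filter of 100, TMM scaling, edgeR and DESeq2, at -0.21, -0.24, -0.24 and -0.23. *Il1rn* in confined cPLA_2_ WT cells against LPS was not called with TMM scaling, at -0.07, or with edgeR, at -0.07.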
